A study of Mus musculus with 6 samples.

Results

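The EGF receptor family was examined in mouse brain tumours driven by a mutant EGF receptor, through 10 genes: the receptors Egfr, Erbb2, Erbb3 and Erbb4, the ligands Tgfa, Hbegf, Btc and Nrg1, and the inhibitors Errfi1 and Lrig1. The genes were chosen by name, and each was represented by every probe that the array platform's annotation names for it. Of the 10 genes, 7 had a named probe, which gave 10 probes of the 25697 on the array. No probe carries the name Erbb2, Erbb3 or Erbb4 in the annotation used here, and these 3 receptors were not analysed here. Egfr had 4 probes and the other 6 genes had 1 each.

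Transcripts were measured on Illumina bead arrays in 6 tumours, 3 of each of 2 genotypes, grown in the brains of SCID mice, a strain that does not form mature T or B lymphocytes. The Olig2_null tumours grew from transplanted Olig2cre/cre;p53fl/fl;hEGFRvIII cells. The Olig2_het tumours grew from transplanted Olig2cre/+;p53fl/fl;hEGFRvIII cells and kept 1 Olig2 allele without cre. Both groups carried floxed p53 and the oncogene hEGFRvIII, so neither shows the tumours without the oncogene. Cre was expressed from the Olig2 locus in both groups. The tumours were collected once neurological symptoms appeared, and the labels give ages of 45, 50 and 47 days to the tumours numbered 1, 2 and 3 of each genotype. Nothing in the labels tells whether the tumours of 1 genotype had separate cells of origin. The p-values therefore cover only the variation among these tumours, which may be technical. The comparison asks how far these genes differ once the second Olig2 allele also carries cre.

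The receptors of this family are tyrosine kinases of the cell surface that pair when a ligand binds and then signal through RAS-ERK and PI3K-AKT. The ligands are made as membrane proteins and are released by proteases. Tgfa, Hbegf and Btc bind the EGF receptor, and Nrg1 binds the receptors encoded by Erbb3 and Erbb4. Errfi1 encodes a cytoplasmic protein, also called MIG6, that binds and inhibits the receptor's kinase and is induced by receptor signalling. Lrig1 encodes a membrane protein that promotes loss of the receptors from the cell. EGFRvIII is a form of the human receptor found in glioblastoma that lacks part of the ligand-binding region and signals without ligand. The array has mouse probes, and whether any Egfr probe also binds the human transgene was not tested.

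A probe is called detected at a detection p-value under 0.05, which held for 53.4% to 57.6% of the probes on each array. Olig2_null replicate 3 was the Olig2_null tumour most like the Olig2_het tumours. Its correlation with them was 0.914 to 0.941 over the 14606 tested probes, against 0.766 to 0.837 for replicate 1 and 0.83 to 0.89 for replicate 2. Within Olig2_null, replicate 3 correlated at 0.886 and 0.928 with the others, which correlated at 0.912 with each other. The differences of the member probes and of the other genes named are therefore also given without replicate 3. Olig2 itself read log2 intensities of 6.41, 5.86 and 6.44 in the Olig2_null tumours, against 7.76, 7.85 and 7.13 in the Olig2_het tumours (limma adjusted p = 0.0555). The probe was detected on all 6 arrays, and its place relative to the segment lost from the cre allele is not known here.

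The windows around the annotated starts of Egfr, Tgfa and Errfi1 are shown. They were picked because these 3 genes had the member probes whose values did not overlap between the genotypes. The values of 31.2% of all tested probes did not overlap either. Tgfa was detected in Olig2_het alone, so its direction was set by the detection filter. Each window runs from 250 bases before to 50 bases after a start, 5′ to 3′ on the gene's plus strand, from RefSeq on GRCm38.p6. Capitals mark matches to the E-box pattern CANNTG, which matches at the same place on both strands. Such sites are the kind bound by basic helix-loop-helix factors, the class to which Olig2 belongs. Egfr lies at chr11:16751953-16752252, Tgfa at chr6:86194972-86195271, and Errfi1 has one start at chr4:150853546-150853845 and another at chr4:150854820-150855119.
Egfr: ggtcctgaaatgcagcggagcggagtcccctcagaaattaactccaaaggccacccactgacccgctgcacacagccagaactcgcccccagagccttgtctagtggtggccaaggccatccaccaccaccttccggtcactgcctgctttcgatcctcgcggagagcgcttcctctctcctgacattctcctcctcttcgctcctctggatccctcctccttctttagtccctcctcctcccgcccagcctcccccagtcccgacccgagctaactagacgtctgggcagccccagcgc
Tgfa: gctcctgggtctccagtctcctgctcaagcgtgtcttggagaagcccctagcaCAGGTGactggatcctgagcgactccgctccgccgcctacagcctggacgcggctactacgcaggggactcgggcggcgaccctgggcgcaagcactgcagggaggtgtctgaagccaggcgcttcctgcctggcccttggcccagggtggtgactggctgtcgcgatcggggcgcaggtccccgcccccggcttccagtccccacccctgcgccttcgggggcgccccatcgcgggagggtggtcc
Errfi1, first start: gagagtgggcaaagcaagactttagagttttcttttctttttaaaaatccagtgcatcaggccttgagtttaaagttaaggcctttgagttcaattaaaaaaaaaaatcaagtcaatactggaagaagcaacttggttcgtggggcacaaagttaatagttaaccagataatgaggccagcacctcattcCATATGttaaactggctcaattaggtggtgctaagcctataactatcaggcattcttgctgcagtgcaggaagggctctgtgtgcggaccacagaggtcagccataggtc
Errfi1, second start: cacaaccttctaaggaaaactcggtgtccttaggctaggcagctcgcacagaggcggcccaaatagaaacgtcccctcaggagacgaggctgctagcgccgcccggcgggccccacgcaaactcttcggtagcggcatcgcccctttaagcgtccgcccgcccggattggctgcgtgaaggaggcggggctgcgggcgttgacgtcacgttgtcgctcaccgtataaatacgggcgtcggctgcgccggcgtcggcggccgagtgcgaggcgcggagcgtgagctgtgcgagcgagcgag
The Egfr window and the second Errfi1 window held no CANNTG. The Tgfa window held 1, CAGGTG, and the first Errfi1 window 1, CATATG. Of the 32851 windows of this length in the RefSeq table, 72.3% held at least 1. The GC-box letters GGGCGG, searched on both strands, occurred 1 time in the Egfr window, 2 times in the Tgfa window and 3 times in the second Errfi1 window, and at least once in 35.7% of all windows. Of the other members, the Btc window held 4 E-boxes and the Lrig1 window none. A match is a description of these letters and does not show a bound site.

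No member passed the threshold, a limma adjusted p under 0.05 over all 14606 tested probes. A probe was tested when it was detected on at least 3 of the 6 arrays, and 7 of the 10 member probes, from 5 genes, were. Among all tested probes 4.42% passed. At an unadjusted p under 0.05, 4 of the 7 member probes were below, against 25.3% of all tested probes. Of these 4, 3 were higher and 1 was lower in Olig2_null, against 12.2% higher and 13.1% lower over all tested probes. For those 4 probes, 2 of Egfr and 1 each of Errfi1 and Tgfa, the values of the 2 genotypes did not overlap, as for 31.2% of all tested probes. The median difference of the 7 probes was 0.48, and that of all tested probes was 0.02 (differences are Olig2_null minus Olig2_het, log2 intensity). The 2 Egfr probes measure 1 gene in the same tumours and are not independent. With each of the 5 genes read by its brightest tested probe, 1 was higher and 1 lower at an unadjusted p under 0.05. By gene, 40% did not overlap, against 32.5% of all tested genes, and the median difference was 0.39. The Tgfa probe entered the test only through the Olig2_het arrays, so it had to be lower in Olig2_null, and the 7 probes are not all members.

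**Figure D1:**
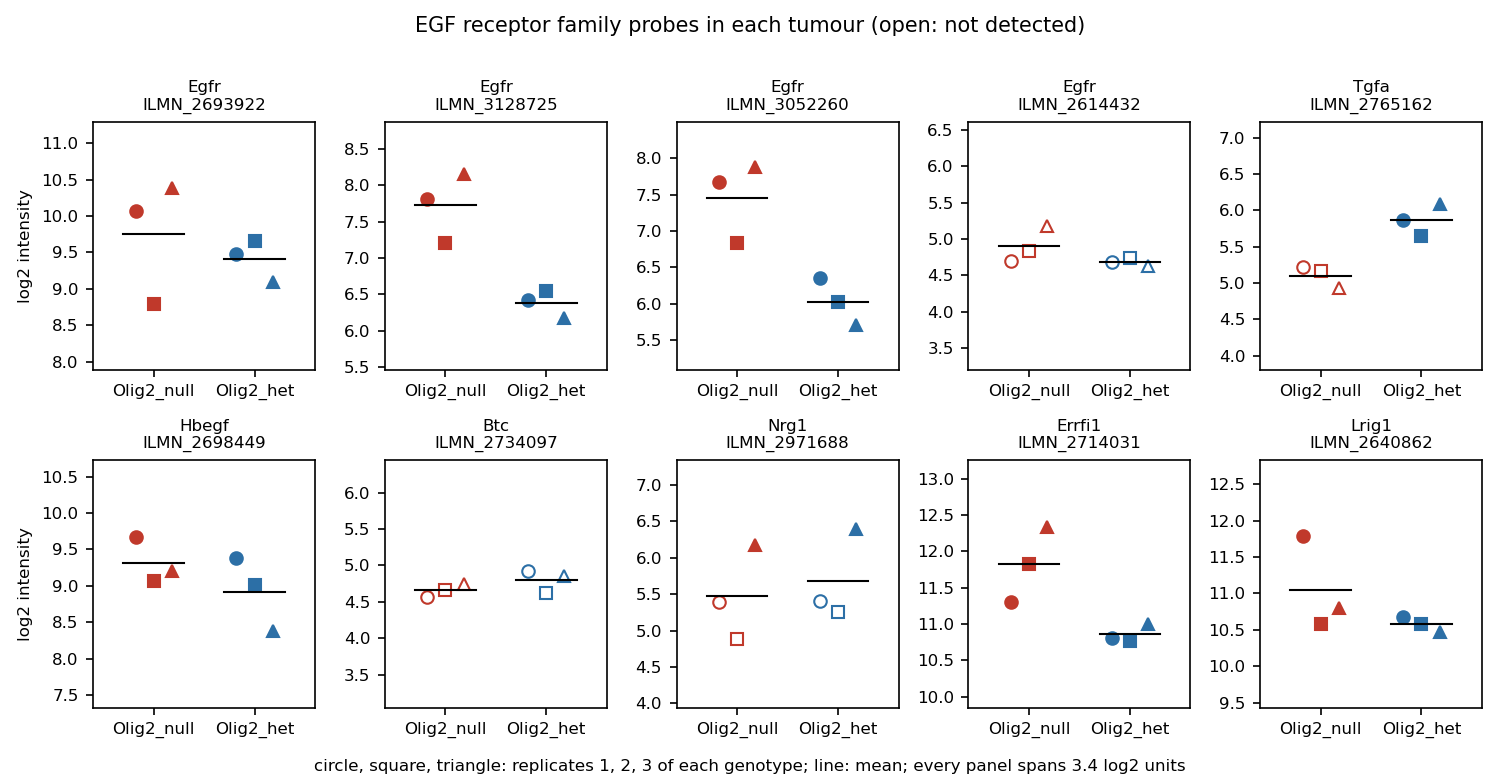
Log2 intensity (vertical axis) of each of the 10 member probes in the 3 Olig2_null tumours (red, left) and the 3 Olig2_het tumours (blue, right); lines are means and open symbols are values not detected. The groups are separate for Egfr ILMN_3128725 and ILMN_3052260, for Errfi1 and for Tgfa, which is detected only in Olig2_het.

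Egfr, the receptor gene of the mouse, had values that overlapped between the genotypes on its brightest probe and did not overlap on its 2 dimmer tested probes. The annotation ties the brightest probe, ILMN_2693922, to one RefSeq transcript and the dimmer probes, ILMN_3128725 and ILMN_3052260, to another. Mouse Egfr is known to make a full-length transcript and shorter ones that encode a secreted receptor without the kinase. Which transcripts each probe binds was not tested, so no probe's difference can be read here as one of the full-length receptor. The brightest probe read 10.07, 8.79 and 10.39 in the Olig2_null tumours, against 9.48, 9.66 and 9.09 in the Olig2_het tumours. Replicates 1 and 3 of Olig2_null lay above all Olig2_het tumours and replicate 2 lay below them. The difference was 0.34 ± 0.44 (SE, n = 3 per group), with a 95% interval from -0.69 to 1.38 (limma adjusted p = 0.680). Without Olig2_null replicate 2 it was 0.82 (adjusted p = 0.196), and without Olig2_null replicate 3 it was 0.02 (adjusted p = 0.981), the extremes of the 16 distinct alternatives tried.

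Probe ILMN_3128725 of Egfr read 7.81, 7.21 and 8.16 in the Olig2_null tumours, against 6.42, 6.54 and 6.17 in the Olig2_het tumours. Every Olig2_null value lay above every Olig2_het value. The difference was 1.35 ± 0.30 (SE), or 2.55-fold, and missed the threshold (limma adjusted p = 0.0555, 95% interval 0.64 to 2.06). Probe ILMN_3052260 read 7.67, 6.83 and 7.88 in the Olig2_null tumours, against 6.35, 6.03 and 5.71 in the Olig2_het tumours. Here too the groups were separate, with replicate 2 the lowest of the Olig2_null tumours on all 3 tested Egfr probes. The difference was 1.43 ± 0.35 (SE), or 2.69-fold (adjusted p = 0.0649, 95% interval 0.61 to 2.24). Without Olig2_null replicate 3 the differences of the dimmer probes were 1.13 and 1.22 (adjusted p = 0.0590 and 0.0785). On signals with no background correction they were 0.67 and 0.64 (adjusted p = 0.0870 and 0.104). With arrays weighted by their quality, a setting in which 12.7% of all tested probes passed, both did (adjusted p = 0.0288 and 0.0276). Over the 16 alternatives the adjusted p reached 0.188 for ILMN_3128725 and 0.224 for ILMN_3052260.

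The fourth Egfr probe, ILMN_2614432, was not detected on any array. It read 4.70, 4.84 and 5.18 in the Olig2_null tumours, against 4.68, 4.74 and 4.63 in the Olig2_het tumours, and was not tested. Its annotated transcript is the one of the brightest probe.

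The probes of Egfr were compared with each other within each array, over 3 pairs. The log2 intensity of ILMN_2693922 minus that of ILMN_3128725 was 2.27, 1.57 and 2.23 in the Olig2_null tumours, against 3.06, 3.12 and 2.91 in the Olig2_het tumours. The values were lower in all 3 Olig2_null tumours, with a difference of -1.01. The same quantity against ILMN_3052260 was 2.41, 1.96 and 2.51 in the Olig2_null tumours, against 3.13, 3.63 and 3.38 in the Olig2_het tumours, a difference of -1.09. Both gave an exact two-sided permutation p of 0.1, the smallest that 3 tumours against 3 allow, and 0.15 after adjustment over the 3 pairs. The 2 dimmer probes differed from each other by -0.08 between the genotypes (exact permutation p = 0.6). With no background correction the first 2 of these differences were -0.36 and -0.33, in place of -1.01 and -1.09, and without Olig2_null replicate 3 they were -1.11 and -1.20. With this number of tumours the comparison cannot reach a p under 0.05.

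**Figure D2:**
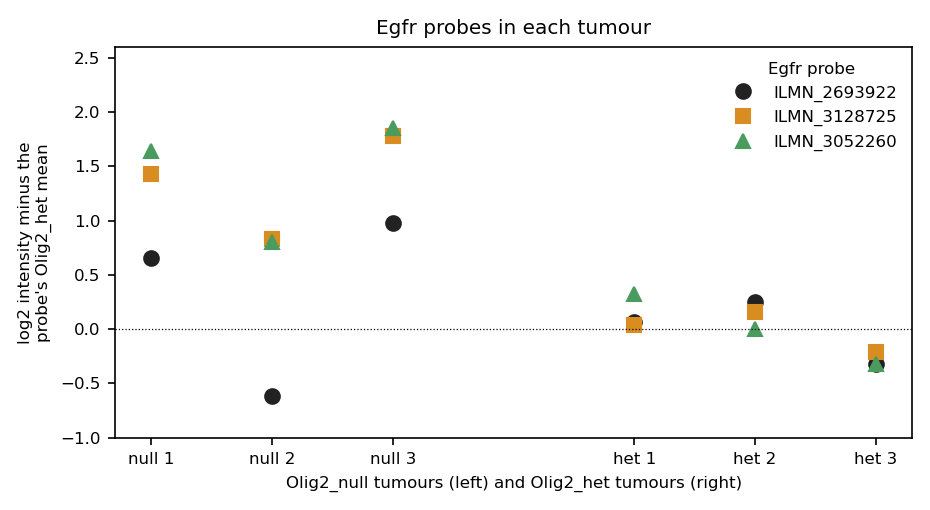
Log2 intensity of the 3 tested Egfr probes minus each probe's Olig2_het mean (vertical axis), in the Olig2_null tumours (left) and the Olig2_het tumours (right). The dimmer probes ILMN_3128725 and ILMN_3052260 lie together above 0 in all 3 Olig2_null tumours, and the brightest probe lies below 0 in Olig2_null replicate 2.

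The profile over the 6 tumours that was most like that of the brightest Egfr probe belonged to Mfn1, a mitochondrial fusion gene, and Zkscan3, a zinc finger gene. The root mean square difference of log2 values, each probe centred on its own mean, was 0.16 for Mfn1 and 0.16 for Zkscan3 over 6 arrays, against a median of 0.71 over all tested probes. Both genes were picked as the nearest by this measure, so values far below the median follow from the choice. By the same measure the dimmer Egfr probes lay at 0.56 and 0.59 from the brightest one, with 2894 and 3763 probes nearer to it. The 2 dimmer probes lay at 0.16 from each other.

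Of the ligands, Tgfa was seen in Olig2_het alone and Hbegf in every tumour. Tgfa encodes transforming growth factor alpha, a ligand of the EGF receptor. Its probe read 5.22, 5.16 and 4.93 in the Olig2_null tumours, where it was not detected, against 5.87, 5.64 and 6.09 in the Olig2_het tumours, where it was detected on all 3 arrays. The values did not overlap. The measured difference was -0.76 ± 0.24 (SE, limma adjusted p = 0.107). Since the Olig2_null level is a bound, a fold of 1.38 was also taken per array against the dimmest detected probe, or against Tgfa's own value where that was brighter. This fold is an estimate from the group means without an interval, and not a lower limit on the true difference. Its direction was set by the detection filter. The difference was -0.68 without Olig2_null replicate 3 (adjusted p = 0.164) and -0.21 with no background correction (adjusted p = 0.323), and the adjusted p was 0.0969 or more in each of the 14 distinct alternatives that tested it. With each undetected value raised to the dimmest detected signal of its array it was -0.47 ± 0.22 (SE, adjusted p = 0.245).

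Hbegf encodes heparin-binding EGF-like growth factor, a ligand made by many cell types. It read 9.67, 9.06 and 9.21 in the Olig2_null tumours, against 9.38, 9.01 and 8.38 in the Olig2_het tumours. The ranges overlapped. The difference was 0.39 ± 0.33 (SE, limma adjusted p = 0.512), with a 95% interval from -0.39 to 1.17. It was 0.44 without Olig2_null replicate 3, 0.22 without Olig2_null replicate 1, 0.12 without Olig2_het replicate 3 and 0.62 without Olig2_het replicate 1.

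Nrg1, a neuregulin of neurons, was detected on 1 of 3 Olig2_null arrays and 1 of 3 Olig2_het arrays and was not tested. It read 5.39, 4.89 and 6.18 in the Olig2_null tumours, against 5.40, 5.25 and 6.39 in the Olig2_het tumours. The detected arrays were replicate 3 of each genotype. Btc, which encodes betacellulin, was not detected on any array, at 4.57, 4.66 and 4.75 in the Olig2_null tumours, against 4.92, 4.62 and 4.86 in the Olig2_het tumours. On such a probe a difference was not detectable at this signal over background.

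Of the inhibitors, Errfi1 was separate between the genotypes and Lrig1 was not. Errfi1 read 11.30, 11.83 and 12.33 in the Olig2_null tumours, against 10.81, 10.77 and 11 in the Olig2_het tumours. The Olig2_het tumours lay within a narrow range below every Olig2_null tumour. The difference was 0.96 ± 0.31 (SE), or 1.94-fold, with a 95% interval from 0.23 to 1.68 (limma adjusted p = 0.114). Without Olig2_null replicate 3, the highest tumour, it was 0.70 (adjusted p = 0.169), and without Olig2_null replicate 1, the lowest of that group, it was 1.22 (adjusted p = 0.0799). With array weights Errfi1 passed (1.09, adjusted p = 0.0345), and over the 16 alternatives its adjusted p reached 0.310.

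Lrig1 read 11.79, 10.58 and 10.80 in the Olig2_null tumours, against 10.68, 10.58 and 10.47 in the Olig2_het tumours. Replicate 1 of Olig2_null was high and replicate 2 lay within the Olig2_het range. The difference was 0.48 ± 0.35 (SE, limma adjusted p = 0.445, 95% interval -0.34 to 1.30). It was 0.11 without Olig2_null replicate 1 and 0.61 without Olig2_null replicate 3. The high tumour was a different one for the 2 inhibitors, replicate 3 for Errfi1 and replicate 1 for Lrig1.

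**Figure D3:**
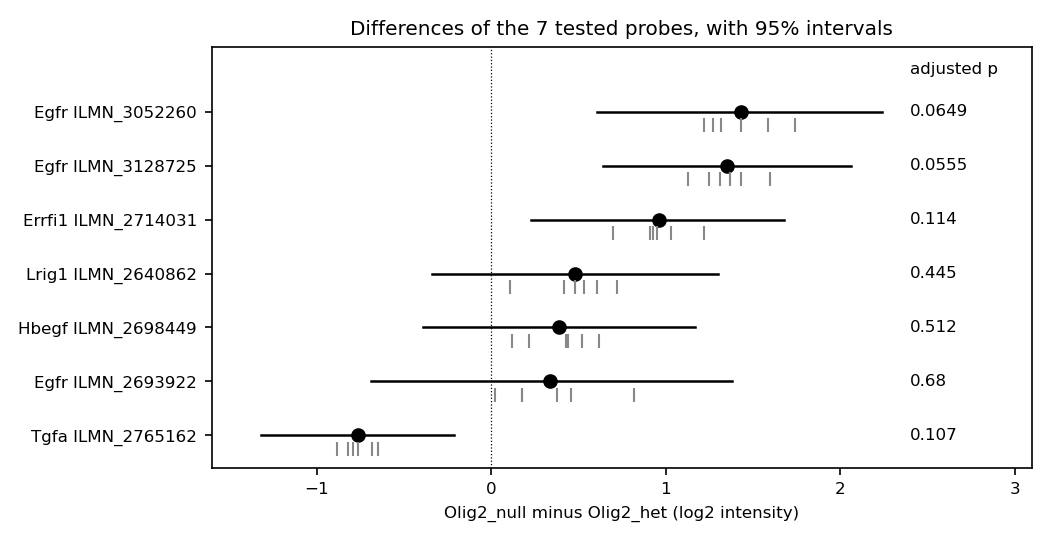
Difference in log2 intensity, Olig2_null minus Olig2_het (horizontal axis), of the 7 tested member probes; bars are 95% intervals of the limma fit and grey ticks the differences with each tumour left out in turn. The intervals of Egfr ILMN_3052260 and ILMN_3128725, Errfi1 and Tgfa lie to one side of 0, while no adjusted p is under 0.05. The direction of Tgfa, detected in Olig2_het alone, was set by the detection filter.

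Across the wider pathway 1 gene passed. The genes were read from lists of ligands, proteases, regulators and signalling proteins, each gene by its brightest tested probe. Over all 9998 tested genes 2.83% rose, 1.95% fell and the median difference was 0.00. At an unadjusted limma p under 0.05, 1223 of the 9998 were higher and 1375 lower in Olig2_null. Of 7 other ligand genes, 2 were tested and none passed, with 0 at an unadjusted p under 0.05. Egf, the founding ligand, was detected on all 3 Olig2_het arrays and on no Olig2_null array, so it too entered the test only through Olig2_het and had to be lower in Olig2_null. The measured difference of Egf was -0.56 ± 0.25 (SE, limma adjusted p = 0.210), and -0.63 without Olig2_null replicate 3. The fold of Egf against the dimmest detected probes, taken as for Tgfa, was 1.11 and is likewise an estimate without an interval. With undetected values raised as for Tgfa the difference of Egf was -0.16 ± 0.21 (SE, adjusted p = 0.703). Nrg3, a neuregulin of neurons, was detected on 1 Olig2_null array and 2 Olig2_het arrays and differed by -0.99 ± 0.55 (SE, adjusted p = 0.319). Its difference was -0.36 without Olig2_het replicate 3, -1.22 without Olig2_null replicate 3 and -0.62 with undetected values raised.

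Of 8 genes for shedding and trafficking of ligands, 6 were tested, 1 rose and none fell, with a median of 0.92. The gene that rose was Mmp14, a membrane-anchored metalloprotease known chiefly for cutting the extracellular matrix. Mmp14 read 12.84, 12.11 and 11.98 in the Olig2_null tumours, against 10.19, 9.51 and 9.45 in the Olig2_het tumours. The groups lay far apart relative to their spread. The difference was 2.59 ± 0.34 (SE), or 6.02-fold (limma adjusted p = 0.0172). It was 2.75 without Olig2_null replicate 3 (adjusted p = 0.00898). The call was lost without Olig2_null replicate 2 (adjusted p = 0.0537) and without Olig2_het replicate 1, 2 or 3 (adjusted p = 0.0611, 0.0972 and 0.0698), with differences of 2.45 to 2.83.

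The other 5 tested genes of this list did not pass and are given in full, a choice made after their values were seen. Of the 6 tested genes 3 had values that did not overlap between the genotypes, Mmp14, Adam12 and Rhbdf1, as did 32.5% of all tested genes. Adam12, a membrane protease reported to release Hbegf, read 11, 10.01 and 10.01 in the Olig2_null tumours, against 8.73, 8.86 and 7.66 in the Olig2_het tumours (difference 1.93, limma adjusted p = 0.0549). Rhbdf1, an inactive rhomboid protein that helps the sheddase encoded by Adam17 to the cell surface, read 13.20, 12.71 and 12.41 in the Olig2_null tumours, against 11.72, 11.50 and 10.87 in the Olig2_het tumours (difference 1.41, limma adjusted p = 0.0609). Without Olig2_null replicate 3 both passed, Adam12 with 2.09 (adjusted p = 0.0380) and Rhbdf1 with 1.59 (adjusted p = 0.0350). In that setting 1922 probes of the whole array passed, against 645 with all tumours, so passing there was less selective. Adam12 and Rhbdf1 each passed in 4 of 16 alternatives. Their adjusted p reached 0.163 for Adam12 and 0.197 for Rhbdf1. The values of the remaining genes overlapped. Adam17 differed by 0.43 (adjusted p = 0.550), and by 0.06 without Olig2_null replicate 1, 0.18 without Olig2_het replicate 3 and 0.60 without Olig2_null replicate 3. Adam9, a further membrane protease, differed by 0.33 (adjusted p = 0.452, and 0.42 without Olig2_null replicate 3). Rhbdl2, a rhomboid protease, differed the other way, by -0.48 (adjusted p = 0.474, and -0.49 without Olig2_null replicate 3), with a range of -0.96 to -0.18 over the alternatives.

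None of 11 tested genes among the other negative regulators passed in limma, with a median of 0.11. At an unadjusted p under 0.05, 2 were higher, as were 1223 of all 9998 tested genes. Socs4, which targets the receptor for degradation, differed by 0.94 (adjusted p = 0.115), by 1.11 without Olig2_null replicate 3 and by 0.39 with no background correction. Ptprj, a receptor phosphatase, was detected on 3 Olig2_null arrays and on 1 Olig2_het array, and its values overlapped. Its difference of 0.76 (adjusted p = 0.195) was 0.40 with undetected values raised (adjusted p = 0.358), 0.23 with no background correction and 0.92 without Olig2_null replicate 3. None of 10 adaptors and proximal effectors passed, with a median of 0.12. At an unadjusted p under 0.05, 1 was higher, against the same 1223 of 9998 genes. Shc1, the adaptor that links the receptor to RAS, read 13.09, 12.45 and 11.85 in the Olig2_null tumours, against 11.08, 10.88 and 10.39 in the Olig2_het tumours. The groups of Shc1 did not overlap, and the difference was 1.68 ± 0.37 (SE, limma adjusted p = 0.0543). Without Olig2_null replicate 3 Shc1 passed (1.99, adjusted p = 0.0172), a setting in which 1922 probes passed, against 645 with all tumours. Shc1 passed in 5 of 16 alternatives, with an adjusted p of up to 0.194. Nck1, a further adaptor, differed by 0.54 (adjusted p = 0.206), and by 0.62 without Olig2_null replicate 3.

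None of 11 tested genes of the RAS-ERK and PI3K-AKT cores passed, with a median of 0.26. At an unadjusted p under 0.05, 1 was lower, as were 1375 of all 9998 tested genes. Pik3cb, a catalytic subunit of PI3K, differed by -1.09 ± 0.25 (SE, limma adjusted p = 0.0558), with no overlap between the genotypes. It passed without Olig2_null replicate 3 (-1.23, adjusted p = 0.0313), a setting in which 1922 probes passed, against 645 with all tumours. Pik3cb passed in 4 of 16 alternatives, with an adjusted p of up to 0.214. Pik3r2, a regulatory subunit, differed by 0.46 (adjusted p = 0.265), and by 0.43 without Olig2_null replicate 3.

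**Figure D4:**
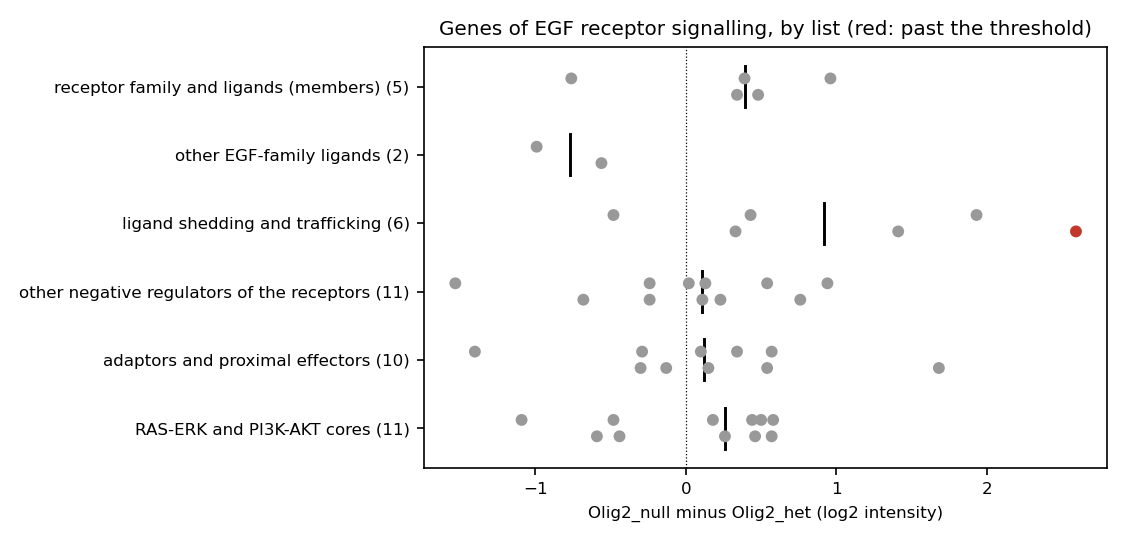
Difference in log2 intensity, Olig2_null minus Olig2_het (horizontal axis), of each tested gene by its brightest probe, in 6 lists of EGF receptor signalling with the number of tested genes in brackets; vertical bars are list medians. The 1 gene past the threshold is Mmp14, at 2.59.

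Summed markers of oligodendrocytes were lower in all 3 Olig2_null tumours than in any Olig2_het tumour. Those of endothelial cells, pericytes or fibroblasts, and microglia or macrophages were higher in all 3, while the other 4 sums overlapped. Of all tested genes taken singly, 32.5% did not overlap, and the share for sums was not computed. These tumours were measured in bulk, so fewer cells of a type and less RNA per cell cannot be told apart. The summed normalized intensity of 14 neuron markers was 1769 to 29632 in the Olig2_null tumours, against 29591 to 79737 in the Olig2_het tumours. The sums overlapped through Olig2_null replicate 3, without which the highest Olig2_null sum was 10300. All 10 tested neuron markers had a negative difference, and 0 passed the threshold in limma. Over all 9998 tested genes, 2.83% rose and 1.95% fell. Among neuron markers Snap25, Nefl and Gad2 were not detected on any array. The sum of 14 oligodendrocyte markers was 23303 to 68529 in Olig2_null, against 71949 to 79477 in Olig2_het, and of 12 tested markers 3 fell and 1 rose. The sum of 11 precursor markers overlapped, at 19699 to 42488 in Olig2_null, against 38151 to 55191 in Olig2_het, and of 10 tested markers 2 fell and 0 rose. The precursor list includes Olig2, the gene by which the genotypes differ, which did not pass. The sum of 11 endothelial markers was 7499 to 13548 in Olig2_null, against 2812 to 4645 in Olig2_het, and of 9 tested markers 4 rose and 0 fell. Among endothelial markers Kdr was not detected in Olig2_null.

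The sum of 9 pericyte or fibroblast markers was 4810 to 10192 in Olig2_null, against 1937 to 3401 in Olig2_het, with Col1a2 not detected on any array. Of the 6 tested markers 1 rose and 0 fell, against 2.83% and 1.95% of all tested genes. The sum of 11 microglia or macrophage markers was 13737 to 33891 in Olig2_null, against 7160 to 10710 in Olig2_het, highest in Olig2_null replicate 1, and of 9 tested markers 2 rose and 0 fell. The sum of 7 ependymal or choroid plexus markers overlapped, at 2051 to 27781 in Olig2_null, against 12802 to 23721 in Olig2_het, and 0 of 7 tested markers passed. The sum of 11 astrocyte markers also overlapped, at 58643 to 73667 in Olig2_null, against 55300 to 69858 in Olig2_het, with 10 of the 11 detected on all arrays and 0 of 11 tested markers past the threshold. The dimmer Egfr probes, Errfi1, Mmp14 and Shc1 were higher in the genotype with the higher endothelial, pericyte or fibroblast, and microglia or macrophage sums. Pik3cb was higher in the genotype with the higher oligodendrocyte sum. The part of these cells in the differences was not tested.

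**Figure D5:**
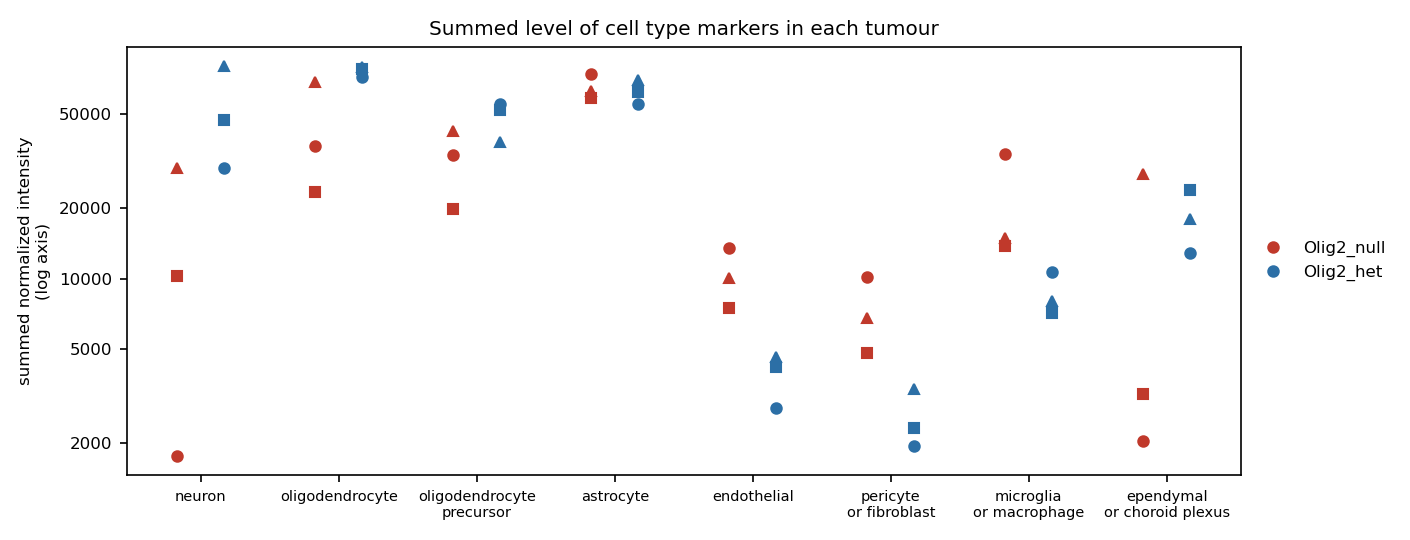
Summed normalized intensity (log axis) of the markers of 8 cell types in each Olig2_null tumour (red, left of each pair) and each Olig2_het tumour (blue, right); circles, squares and triangles are replicates 1, 2 and 3. Endothelial, pericyte or fibroblast, and microglia or macrophage sums lie higher in all 3 Olig2_null tumours, oligodendrocyte sums lower, and astrocyte sums overlap.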

How the data were processed

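One table deposited by the authors gives each probe a linear intensity per array and, per the file headers, a detection p-value. The lowest signals, 118.8 to 130.4, show that no background had been subtracted. A second table deposited by the authors holds intensity values that equal quantile-normalized signals of the first, with numbers 1 and 3 exchanged within both genotypes. Groups are not affected, arrays are numbered as in the signal table, and which of 45 and 47 days belongs to number 1 or 3 is uncertain. No source used here names the software, batches or genome build.

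Signals were corrected with normexp from detection p-values, given an offset of 16, quantile-normalized and log2-transformed (neqc, limma 3.58.1, R 4.3.3). Genotype was the only term of the limma model (lmFit, eBayes, two-sided), fitted to the 14606 probes detected on at least 3 arrays, with Benjamini-Hochberg adjustment over all of them. The procedure was run on simulated data with known differences and an independent spread for each probe. That spread leaves out the likeness between tumours seen here, so the run does not show how reliable these calls are. The number of arrays limits the precision. Probes were named from the platform annotation (23978 named, 1719 unnamed here), and 23962 were matched by gene identifier to RefSeq symbols of GRCm38.p6. A list gene is given by its tested probe with the highest mean. Named were all members, list genes past the threshold (at most 4 per list) or else the 2 with the smallest p, and the 2 genes with the profile nearest to Egfr. Beyond this rule, Adam12, Rhbdf1, Adam17, Adam9 and Rhbdl2 were named after their values were seen. The members and lists were chosen with earlier results of these data known. Alternatives covered background, offset, normalization, detection filter, variance model, replicate block, undetected values and each tumour left out. The authors' values gave the same fits as no background correction, and both count as 1 alternative.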

Additional observations from a re-analysis of the deposited data

How the results depend on the processing

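The count of all probes past the threshold, 645, fell to 411 both on uncorrected signals (no background correction) and in the authors' normalized values, which are the same values. It was 230 with no detection filter, 1860 with array weights and 1382 with the replicate block. It was 305, 116 and 1922 without Olig2_null replicates 1, 2 and 3, and 10, 9 and 69 without Olig2_het replicates 1, 2 and 3. The count of member probes past the threshold was 3 with array weights (2 of Egfr and Errfi1) and 0 under each of the other alternatives, each tumour left out included. All 7 tested member probes kept their sign in every alternative that tested them, and the 2 stricter detection filters left Tgfa untested. The difference between the 2 dimmer Egfr probes, -0.08, turned to 0.03 with no background correction and in the authors' normalized values. The cause of these changes was not tested. Tumours of 1 number share the labelled age, and the labels name no shared litter, batch or day: deviations from the group means correlated at 0.194, 0.017 and 0.302 for numbers 1, 2 and 3, and not every tumour correlated best with its own number. With the replicate block no member passed, while Shc1 did (adjusted p = 0.0260), as did Adam12 and Rhbdf1 (adjusted p = 0.0319 and 0.0333). Btc and 1 Egfr probe stayed at background, where signal limits what can be seen.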
